A study of Mus musculus with 4 samples.

Results

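Genes of macrophage fusion and osteoclast formation, 10 in all, were followed through a study of mouse macrophages: Dcstamp, Ocstamp, Atp6v0d2, Tnfrsf11a, Itgb3, Oscar, Calcr, Nfatc1, Acp5 and Ctsk. They were taken by symbol from the array's annotation, and all 10 were present, with 18 probe sets that name only 1 gene, among 18193 genes on the array. The cells were peritoneal macrophages drawn into the cavity with thioglycolate, an irritant, and treated for 18 hours on plastic slides. Each of 4 groups had 1 array. Wild type (WT) and Dap12-KO cells were left untreated or given interleukin-4 (IL-4), and DAP12 is the signalling adaptor encoded by Tyrobp. Thioglycolate and the slide culture were common to all 4, and the sources used here give no strain, sex, age, IL-4 dose or make-up of the KO allele. The comparison was made to see what DAP12 loss does to macrophage genes, both at rest and under IL-4.

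Osteoclasts form when macrophage precursors fuse into multinucleated cells that resorb bone. The cytokine RANKL binds its receptor RANK, receptors that pair with ITAM adaptors such as DAP12 add a calcium signal, and both converge on NFATc1, the transcription factor known to switch on the osteoclast programme, including genes for fusion, attachment and resorption. IL-4 is known to drive macrophages to fuse into giant cells, which share part of this fusion machinery, while it opposes osteoclast formation from RANKL.

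Values are log2 probe set values, where a difference of 1 is 2-fold. Differences of at least 2-fold are called higher or lower here, for genes whose highest value reached a level floor of 6.39, the median of all values. The floor kept 12767 genes in all and 8 of the 10 members, leaving out Oscar and Calcr. With 1 array per group, a difference between 2 arrays has no replicate check and no test. The IL-4 array of the cells labelled Dap12-KO had a narrower spread than the other 3, with its middle 50% of values over 2.54 log2 units against 3.19 to 3.25, and bright probe sets read lower on it. With it, the median gene stood at −0.40 for IL-4 in Dap12-KO and −0.39 for genotype under IL-4, while without it the medians were −0.03 for IL-4 in WT and 0.03 for genotype at rest. Differences that involve that array are given, for the genes described, also after cyclic loess, which levels the arrays along the intensity scale and brings those medians to 0.09 and 0.13. Tyrobp itself read 14.39 in WT untreated, 14.13 in WT IL-4, 14.03 in Dap12-KO untreated and 13.27 in Dap12-KO IL-4, an order kept for all values below, so its signal did not bear out the KO label, and a probe set outside the deleted part would check nothing. Genotype directions below rest on the labels alone. All 8 macrophage markers listed reached the floor on all 4 arrays, and Adgre1, Cd68, Csf1r and Lyz2 were at 13.01 or above on each. Of the 8, 1 was lower with IL-4 in WT and 1 higher in untreated Dap12-KO, where 1.25% and 3.12% of all genes were. With IL-4 in Dap12-KO 2 were lower, and between both IL-4 arrays 1 was, where 17.6% of all genes were in each.

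Ocstamp and Itgb3 were the 2 members that were higher with IL-4 in both genotypes and lower on the arrays labelled Dap12-KO in both treatments. The second Itgb3 probe set had the same directions but, as deposited, passed 2-fold only between both IL-4 arrays. Dcstamp was lower on the arrays labelled Dap12-KO too, and showed no 2-fold difference with IL-4. Tnfrsf11a was lower there with IL-4, in 1 of its 2 probe sets. Acp5 and Atp6v0d2 stayed within 2-fold in all 4 comparisons of 2 arrays, Nfatc1 did so in 4 of its 5 probe sets, and so did Ctsk outside the array with the narrower spread.

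**Figure D1:**
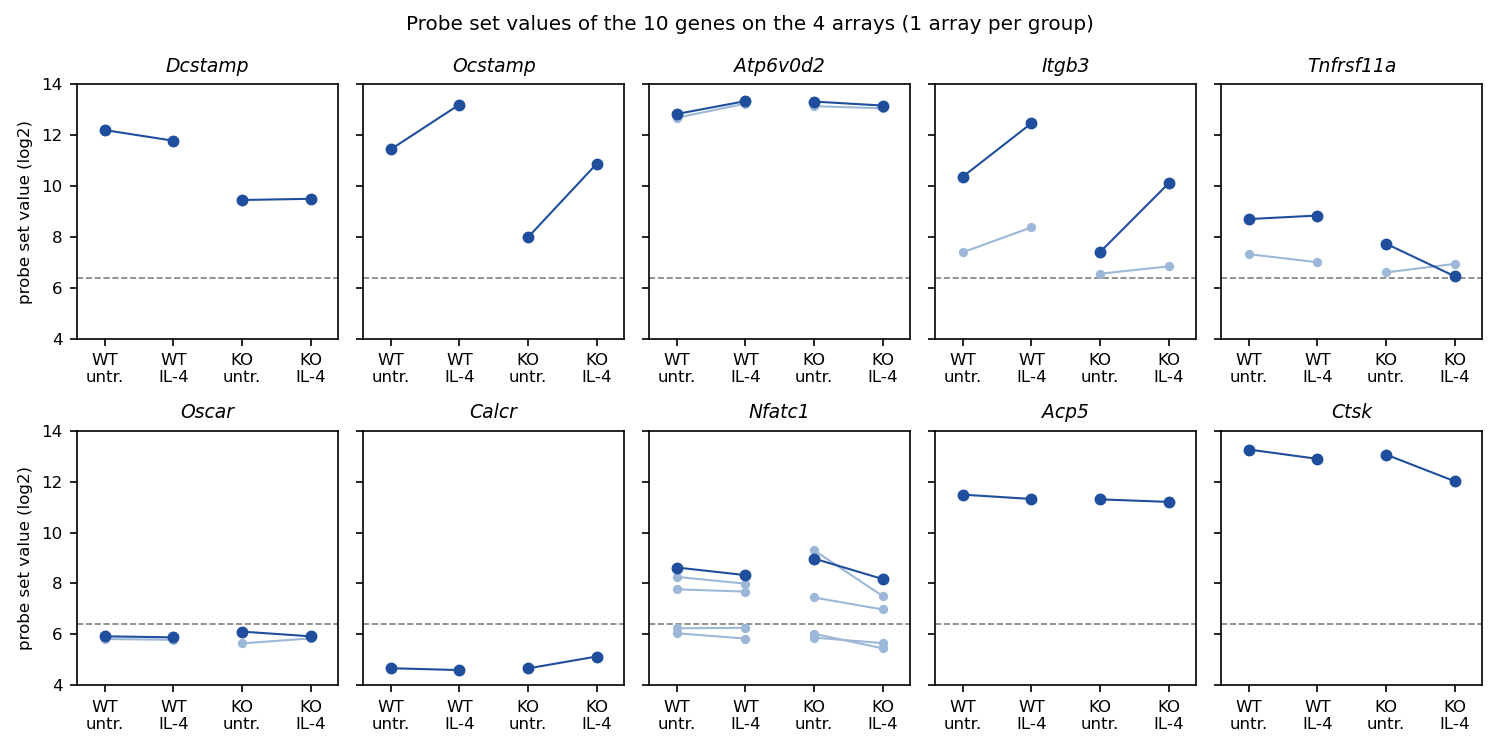
Log2 probe set values (y axis) of the 10 genes on the 4 arrays (x axis), 1 array per point; untr. is untreated, WT wild type and KO labelled Dap12-KO. Dark points are the probe set used for the gene, pale ones its other probe sets, lines join the 2 arrays of a genotype, and the dashed line is the level floor of 6.39. Ocstamp and Itgb3 climb with IL-4 in each genotype from a lower start in KO, Dcstamp is flat and lower in KO, and Oscar and Calcr lie under the floor.

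Among the fusion proteins, Ocstamp and Dcstamp code for multipass membrane proteins that osteoclasts and giant cells need in order to fuse. Ocstamp read 11.45 in WT untreated, 13.21 in WT with IL-4, 7.98 in Dap12-KO untreated and 10.87 in Dap12-KO with IL-4. Both IL-4 arrays thus lay above the untreated array of their genotype, and both Dap12-KO arrays below their WT counterpart. The IL-4 difference was 3.39-fold in WT and 7.43-fold in Dap12-KO, the 45th and 14th highest of 12767 genes, and the latter was 11.3-fold after cyclic loess. Without treatment the Dap12-KO array differed by −3.46, the 9th lowest of all genes, and with IL-4 it was 5.04-fold lower, or 3.16-fold after cyclic loess. The Dap12-KO array with IL-4 came near the untreated WT array, at −0.57 relative to it as deposited and 0.14 after cyclic loess.

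Dcstamp read 12.21 and 11.79 in WT untreated and with IL-4, and 9.45 and 9.50 in Dap12-KO. Its values divide by genotype and hardly by treatment. The genotype difference was 6.74-fold untreated and 4.88-fold with IL-4, or 6.29-fold and 3.04-fold after cyclic loess. The IL-4 difference was −0.42 in WT and 0.05 in Dap12-KO, and the latter read 0.67 after cyclic loess, 0.65 after quantile normalization and −0.07 after median centring. The IL-4 differences of Ocstamp, 1.76 and 2.89, stand apart from these. Atp6v0d2 is the d2 subunit of the proton-pumping vacuolar ATPase and is known to be needed for osteoclast fusion. It read 12.84, 13.35, 13.33 and 13.17. As deposited, all 4 values lay within 0.51 of one another, and its second probe set had a range of 0.55. After cyclic loess Atp6v0d2 was 0.85 higher in Dap12-KO with IL-4 than in WT untreated. IL-4 in WT and the KO label without treatment went with differences of 0.51 and 0.49. Between the Dap12-KO arrays the difference was −0.16 as deposited and 0.29 after cyclic loess, so it has no settled direction.

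Of the 4 receptors, Itgb3 is the integrin beta 3 chain, which pairs with the alpha v chain to attach osteoclasts to bone and signals with DAP12 in them. Itgb3 read 10.37 in WT untreated, 12.47 in WT with IL-4, 7.40 in Dap12-KO untreated and 10.11 in Dap12-KO with IL-4. The order of the arrays is the same as for Ocstamp. IL-4 went with a 4.30-fold difference in WT and 6.53-fold in Dap12-KO, the 35th and 18th highest of all genes, and the latter was 10.3-fold after cyclic loess. Genotype went with 7.83-fold lower levels without treatment, the 18th lowest, and 5.16-fold lower with IL-4, or 3.13-fold after cyclic loess. The second, dimmer Itgb3 probe set had the same 4 directions at smaller sizes, 0.98 and 0.29 (0.57 after cyclic loess) for IL-4 and −0.84 and −1.53 (−1.25 after cyclic loess) for genotype. As with Ocstamp, Itgb3 in Dap12-KO with IL-4 came near WT untreated, at −0.26 as deposited and 0.49 after cyclic loess.

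Tnfrsf11a encodes RANK itself. Its brighter probe set read 8.70 in WT untreated, 8.84 in WT with IL-4, 7.73 in Dap12-KO untreated and 6.45 in Dap12-KO with IL-4, the last just above the floor. It was 5.24-fold lower with IL-4 in Dap12-KO than in WT (3.61-fold after cyclic loess). IL-4 went with a difference of 0.14 in WT and −1.28 in Dap12-KO, or −0.77 after cyclic loess. The untreated genotype difference of −0.97 fell short of 2-fold. The second Tnfrsf11a probe set lay within 0.72 over the 4 arrays and differed by only −0.07 between both IL-4 arrays (0.05 after cyclic loess). Its IL-4 differences were −0.32 in WT and 0.34 in Dap12-KO (0.46 after cyclic loess), opposite in sign to those of the brighter one. The probe sets thus disagree on these 3 comparisons, and both read below WT on the untreated Dap12-KO array, at −0.97 and −0.72. The calcitonin receptor gene Calcr, a late osteoclast marker, read 4.66, 4.59, 4.65 and 5.12, below the floor on all 4 arrays. Oscar, a collagen receptor that signals through the Fc receptor gamma chain, read 5.92, 5.88, 6.10 and 5.92, also below the floor, as did its second probe set. No fold is given for these 2 receptors, since no detection call stands behind such readings.

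Nfatc1, the transcription factor, has 5 probe sets, of which 3 lay above the floor on all 4 arrays and 2 below it on all 4. The probe set used read 8.63, 8.33, 8.98 and 8.17. Its IL-4 differences were −0.30 and −0.81, and the latter shrank to −0.18 after cyclic loess. Between both untreated arrays it differed by 0.35, and between both IL-4 arrays by −0.15, or 0.52 after cyclic loess, so the latter has no settled direction. Its second brightest probe set read 8.26, 7.99, 9.31 and 7.51. That one alone passed 2-fold, with 1.05 between both untreated arrays and −1.80 between both Dap12-KO arrays (1.13 and −1.22 after cyclic loess). The remaining probe set above the floor differed by −0.32 untreated, so the direction between both untreated arrays depends on the probe set.

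The resorption enzymes are tartrate-resistant acid phosphatase (Acp5, TRAP) and cathepsin K (Ctsk), the collagen-degrading protease of osteoclasts. Acp5 read 11.49, 11.32, 11.31 and 11.21, all within 0.29 as deposited. Its difference between both Dap12-KO arrays was −0.10, or 0.48 after cyclic loess. Between both IL-4 arrays it was −0.12, or 0.53 after cyclic loess, so neither has a settled direction. Ctsk read 13.27, 12.90, 13.07 and 12.02, with the lowest value on the array with the narrower spread. The Ctsk difference between both Dap12-KO arrays was −1.05 as deposited and −0.57 after cyclic loess, and 15.6% of all genes lay still lower in that comparison. Neither enzyme had the pattern of Ocstamp, Dcstamp or Itgb3.

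**Figure D2:**
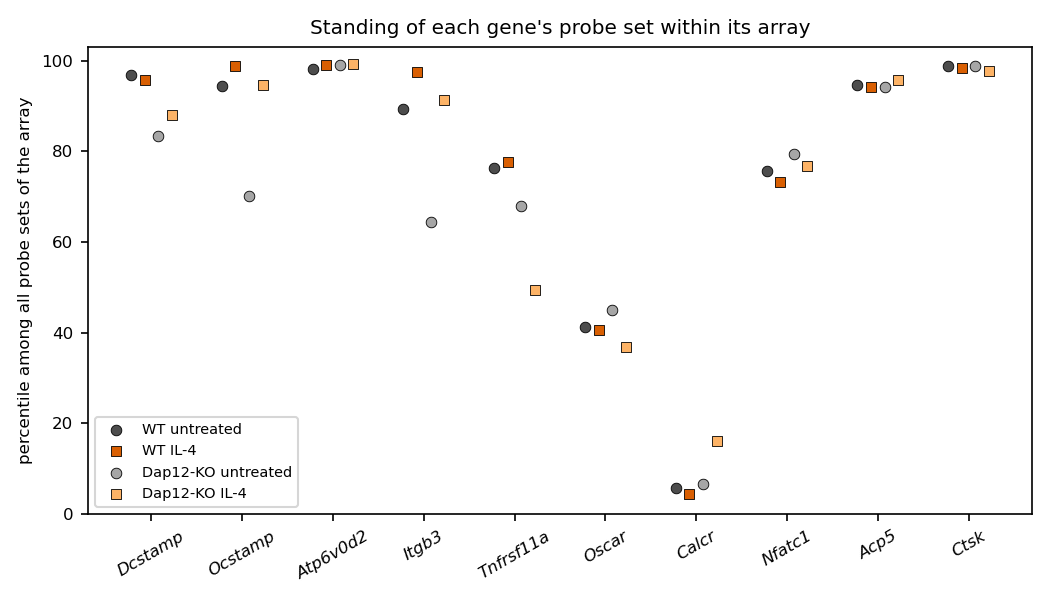
Percentile of each gene's probe set among all 45101 probe sets of the same array (y axis) for the 10 genes (x axis), 1 point per array; circles are untreated and squares IL-4, dark colours WT and light ones Dap12-KO. Ranks do not depend on the spread of an array; Ocstamp stands at percentile 94.5 and 98.8 in WT and 70.2 and 94.6 in Dap12-KO, while Acp5 stays between 94.1 and 95.7.

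Promoters are shown for the resorption enzymes Ctsk and Acp5, as members whose levels held outside the array with the narrower spread, from the RefSeq table (GRCm38.p6). The table held 5 of the 10 members. Oscar and Calcr were below the floor and the Tnfrsf11a run reaches into its gene model, so these are not shown, and Dcstamp, Ocstamp, Atp6v0d2, Itgb3 and Nfatc1 were not in it. Each run is the 250 bases before the table's start, 5′ to 3′ on the gene's strand. Capitals mark matches, on either strand, to the NFAT core GGAAA or to the PU.1 letters GAGGAAG. Ctsk lies on chromosome 3, from 95498960 to 95499209 (plus strand), and Acp5 on chromosome 9, from 22135747 to 22135996 (minus strand), the outermost of 3 starts in the table.

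Ctsk: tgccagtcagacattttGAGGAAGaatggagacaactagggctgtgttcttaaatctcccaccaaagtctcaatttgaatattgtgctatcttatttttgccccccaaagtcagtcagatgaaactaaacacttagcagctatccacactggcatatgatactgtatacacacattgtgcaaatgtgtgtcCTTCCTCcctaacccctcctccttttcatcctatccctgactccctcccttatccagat

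Acp5: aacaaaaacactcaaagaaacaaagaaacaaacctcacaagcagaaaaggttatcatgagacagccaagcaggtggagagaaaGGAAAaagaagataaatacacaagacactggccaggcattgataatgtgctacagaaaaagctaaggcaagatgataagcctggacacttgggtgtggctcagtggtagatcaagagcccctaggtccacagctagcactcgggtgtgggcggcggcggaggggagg

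The Ctsk run holds 2 PU.1 matches and no NFAT core, and the Acp5 run holds 1 NFAT core and no PU.1 match. Of 32851 promoter runs of this length, 55.6% hold an NFAT core and 10.6% a PU.1 match. The AP-1 letters TGANTCA, the STAT6 letters TTC and GAA 4 bases apart, and the E-boxes CACGTG and CATGTG bound by MITF were searched as well and matched in neither run, against 6.75%, 5.85%, 6.02% and 12.3% of all runs. All searches read both strands, none of the matches shown overlap, and a match is a run of letters, not a bound site. The runs also differ in make-up, with 48.0% G or C and 4 CpG pairs before Acp5 and 43.2% and 0 before Ctsk, against medians of 52.4% and 6 over all runs.

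In WT, 2 of the 8 members above the floor were higher with IL-4 (Ocstamp and Itgb3), where 1.21% of all genes were, and 0 were lower, where 1.25% were. In Dap12-KO the same 2 members were higher, where 8.04% of all genes were, and 2 were lower (Tnfrsf11a and Ctsk), where 17.6% were. After cyclic loess the same 2 were higher in each genotype, where 1.30% of genes in WT and 9.79% in Dap12-KO were, and 0 were lower, where 1.10% and 5.91% were. The median difference over the 8 members was −0.02 in WT and −0.13 in Dap12-KO, beside −0.03 and −0.40 over all genes. After cyclic loess these medians were 0.02 and 0.39 over the members, beside 0.01 and 0.09 over all genes. A limma fit of IL-4 over all 4 arrays, with genotype as a block and 1 residual degree of freedom, can use both genotypes as the replicates of IL-4. In it Itgb3 rose by 2.41 ± 0.42 (SE, adjusted p = 5.39e-06, limma) and Ocstamp by 2.33 ± 0.42 (adjusted p = 1.29e-05, limma), each higher in 2 of 2 genotypes. Of 12767 genes 0.540% rose and 1.10% fell, and 0 of the other 6 members passed, with adjusted p from 0.627 to 0.907. The fit gave every gene the same standard error, with infinite prior degrees of freedom, so a call follows the size of the difference alone. After cyclic loess the differences were 2.75 for Itgb3 and 2.65 for Ocstamp but both calls were lost, at adjusted p = 0.306 and 0.379 (limma), where limma called 0 genes of 12767 and 856 had an unadjusted p under 0.05.

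Without treatment, 3 of the 8 members were lower on the array labelled Dap12-KO (Ocstamp, Itgb3 and Dcstamp), where 3.41% of all genes were, and 0 were higher, where 3.12% were. With IL-4, 4 of the 8 were lower (the same 3 and Tnfrsf11a), where 17.6% of all genes were, and 0 were higher, where 10.9% were. After cyclic loess the same 3 were lower at rest, where 2.86% of all genes were, and the same 4 with IL-4, where 5.33% were. Higher members then numbered 0 in both, where 3.64% and 12.6% of genes were. The median over the 8 members was −0.58 untreated and −1.58 with IL-4, beside 0.03 and −0.39 over all genes, or −0.51 and −0.98 after cyclic loess. The members were chosen with earlier results on these arrays known, so these counts are no independent evidence of a direction. Each IL-4 comparison shares 1 array with each genotype comparison.

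**Figure D3:**
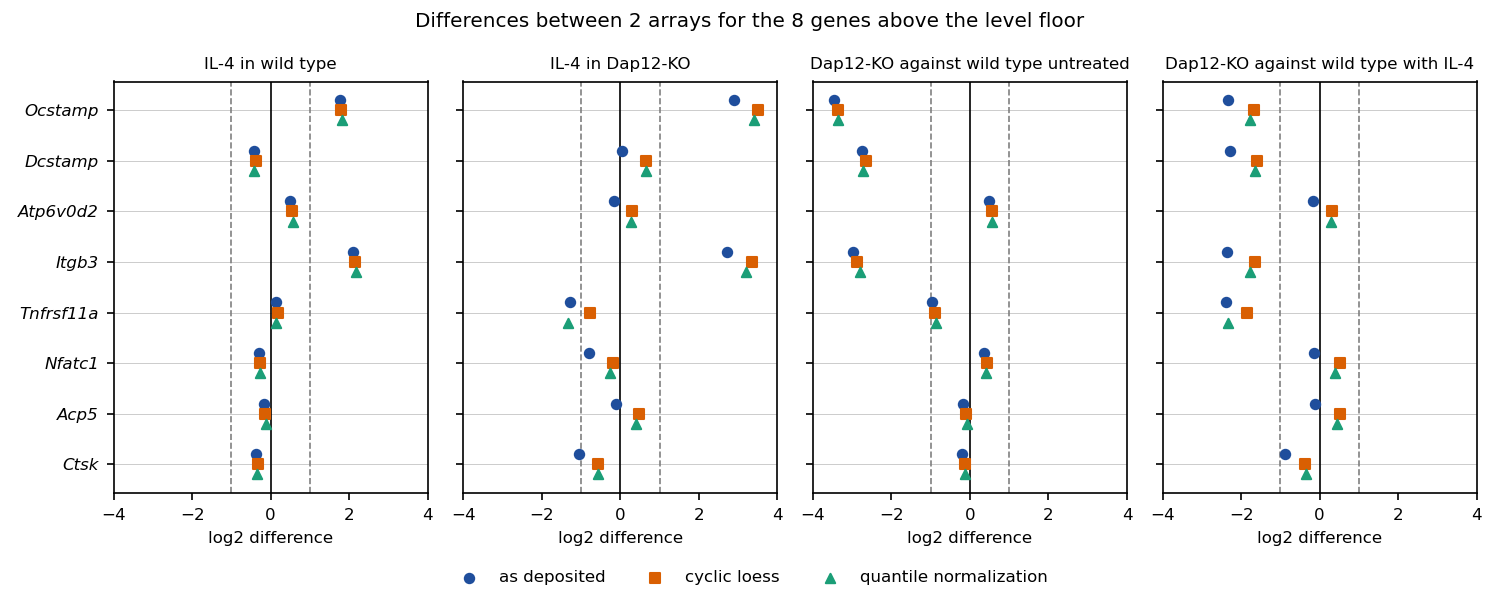
Log2 differences (x axis) of the 8 genes above the floor (y axis) in the 4 comparisons of 2 arrays, as deposited (circles), after cyclic loess (squares) and after quantile normalization (triangles); dashed lines mark 2-fold. Ocstamp and Itgb3 pass 2-fold in all 4 panels under each scaling shown, between −1.65 for Itgb3 with IL-4 and −3.46 for Ocstamp untreated in the genotype panels and between 1.76 and 3.50, both for Ocstamp, in the IL-4 panels. Dcstamp passes in both genotype panels.

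The IL-4 response of Ocstamp was larger in Dap12-KO than in WT by 1.13 log2 units as deposited and by 1.70 after cyclic loess. For Itgb3 the excess was 0.60 as deposited and 1.22 after cyclic loess, but its second probe set went the other way, at −0.69 and −0.45. Among the probe sets used, Tnfrsf11a had the one difference of responses of 2-fold or more in the lower direction, −1.42, or −0.96 after cyclic loess. The second Tnfrsf11a probe set again went the other way, at 0.65 and 0.73. For Nfatc1 the second brightest probe set, which was not the one used, stood at −1.53, or −0.99 after cyclic loess. The Nfatc1 probe set used stood at −0.51 and 0.08. Of all genes, 8.15% had a higher and 14.8% a lower response by 2-fold in Dap12-KO, beside 1 of 8 members in each direction. After cyclic loess 3 of 8 were higher, where 8.90% of genes were, and 0 lower, where 5.58% were.

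Cells other than macrophages could add to these readings, and in whole samples fewer cells of a type and less RNA per cell cannot be told apart. Between both untreated arrays, all 5 measured B cell markers and all 6 resident cavity macrophage markers read above WT in Dap12-KO, with summed levels of 10.71 and 11.75 for B cells and 12.02 and 13.13 for resident macrophages in WT and Dap12-KO. Dendritic cell markers, carried by Itgax, which macrophages also express, had summed levels of 13.09 and 11.32. Of 5 osteoblast and stroma markers, which would mark the usual source of RANKL, Col1a1 and Sp7 were below the floor on all arrays, and the list's summed level was 9.17 in WT and 8.53 in Dap12-KO. Neutrophil, T and NK cell, mast cell and eosinophil lists had 2, 2, 3 and 2 markers below the floor on every array, and summed levels that differed by −0.57, 0.07, 0.43 and −0.15 between both untreated arrays. With IL-4 in WT, the summed levels of the 9 lists differed by −0.44 to 0.29. With IL-4 in Dap12-KO they differed by −0.63, for resident macrophages, to 1.13, for dendritic cells, with 0.69 for osteoblasts and stroma. Between both IL-4 arrays they differed by −0.66, for dendritic cells, to 0.66, for mast cells. The summed level of the dendritic cell list thus differed in the direction of Ocstamp and Itgb3 except with IL-4 in WT, where it differed by only 0.03. Between both IL-4 arrays the median difference over its markers was −0.50 as deposited and −0.02 after cyclic loess. The part of these lists in the differences of the members was not tested.

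By closeness of pattern, measured as the Euclidean distance between mean-centred log2 values over the 4 arrays, Ocstamp and Itgb3 were each other's nearest gene among 12766 others, at a distance of 0.36, and remained so after cyclic loess. Next to Ocstamp came Cdh1, which encodes the adhesion molecule E-cadherin (0.98), and Vcam1 (1.01), and next to Itgb3 came the cytokine feedback inhibitor Socs2 (0.82) and Vcam1 (0.84), an integrin ligand. Cdh1 read 11.28, 13.33, 6.85 and 10.85 and Vcam1 8.90, 10.58, 6.55 and 8.27, so both share the order of the arrays seen for Ocstamp and Itgb3. Dcstamp lay closest to Met, the hepatocyte growth factor receptor (0.11), Hmga2 (0.27) and Efr3b (0.28), with the same 3 genes nearest after cyclic loess. Met read 12.80, 12.39, 10.18 and 10.16, again divided by genotype and not by IL-4. The genes nearest to Tnfrsf11a were Ttc39b, Ilf2 and Isg20l2 (0.08 to 0.10), and those nearest to Ctsk were Ankfy1, Map4k4 and Per1 (all 0.08), which ranked only 136th, 274th and 92nd after cyclic loess. With 4 arrays such closeness is a description and says nothing of shared control.

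Around the members stand the other genes of RANK, ITAM and NFATc1 signalling. Their limma calls, given below, stand beside 0.540% of all genes that rose and 1.10% that fell, and like all calls of that fit they were lost after cyclic loess. Neither RANKL (Tnfsf11) nor its decoy receptor osteoprotegerin (Tnfrsf11b) reached the floor on any array. Of 20 RANK signalling genes above the floor, 1 was lower in untreated Dap12-KO, the adaptor Traf5 at −1.88, and 0 were higher, where 3.41% and 3.12% of all genes were. With IL-4 the genotypes differed in 2 lower genes, Traf5 (−1.17) and the adaptor Traf6 (−1.13), and 0 higher ones, where 17.6% and 10.9% of all genes were. After cyclic loess 0 of the 20 differed there, where 5.33% of all genes were lower and 12.6% higher. Traf6, which links RANK to its kinases, was at 8.77 and 8.81 on both untreated arrays. The list's median was −0.07 untreated. With IL-4 in WT, 0 of 20 passed 2-fold in either direction, where 1.21% of all genes were higher and 1.25% lower.

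Of 21 genes of ITAM costimulation and calcium-calcineurin signalling, 1 was higher and 1 lower in untreated Dap12-KO, where 3.12% of all genes were higher and 3.41% lower. The lower one was Tmem178, known as a brake on calcium signalling to NFATc1, which read 11.34, 10.71, 7.08 and 7.04. Its genotype differences of −4.25 and −3.68 (−2.95 after cyclic loess) were larger than those of any member, and like Dcstamp it divided by genotype and not by IL-4. The higher one was Sirpb1a, a DAP12 partner receptor, at 1.07. Sirpb1a was lower with IL-4 by −1.24 in WT and −2.99 in Dap12-KO (−2.34 after cyclic loess) and was the list's 1 call by limma, which fell by 2.11. The remaining members of the list, among them the kinase Syk and the calcineurin subunits, lay within 2-fold between both untreated arrays.

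Among 20 partner factors of NFATc1, 2 were lower and 0 higher in untreated Dap12-KO, the AP-1 subunits Fosl1 (−2.59) and Fosl2 (−1.36), where 3.12% of all genes were higher and 3.41% lower. Fosl2 read 11.85, 12.56, 10.49 and 11.68, and Fosl1 9.55, 8.61, 6.96 and 7.55. With IL-4 in WT, 2 of the 20 were higher, Nfatc2 (1.19) and the coactivator Ppargc1b (1.03), and 0 lower. Of all genes 1.21% were higher and 1.25% lower there. Between both IL-4 arrays, 6 of the 20 were lower in Dap12-KO and 1 higher, where 17.6% and 10.9% of all genes were. Prdm1, which encodes the repressor BLIMP1, and Mef2c differed most, by −1.99 and −2.09, or −1.26 and −1.36 after cyclic loess. After cyclic loess 2 of the 20 were lower and 2 higher there, where 5.33% and 12.6% of all genes were. Of 8 repressors of NFATc1, 1 was higher in untreated Dap12-KO, Id3 at 1.41, and 0 lower, beside the same shares of all genes. Irf8, the repressor best known from osteoclast precursors, read 11.23, 10.24, 11.76 and 10.11, with IL-4 differences of −0.98 in WT and −1.65 in Dap12-KO (−1.03 after cyclic loess), and did not pass by limma (adjusted p = 0.087). Id3 read 7.81, 6.47, 9.22 and 6.44, with both IL-4 values just above the floor, and fell with IL-4 by 2.06 in the limma fit, the 1 call of 8.

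In the wider fusion machinery, 4 of 34 genes were lower and 1 higher in untreated Dap12-KO, with a median of −0.25, where 3.12% of all genes were higher and 3.41% lower and the median was 0.03. The gelatinase Mmp9 (−4.24) and Cdh1 (−4.44) differed most, and the chemokine receptor Cxcr4 was the higher one (2.31). Mmp9 read 12.52, 12.37, 8.27 and 8.37, with the division of Dcstamp, while Cdh1 responded to IL-4 as Ocstamp did. By limma Cdh1 and Ccl2 rose with IL-4 and Myo10 and Cxcr4 fell, 4 of 34. Of 16 partners and signalling genes of beta 3 integrin, 1 was lower in untreated Dap12-KO, the kinase Src (−1.16), and 1 higher, the beta chain Itgb5 (1.09), which also pairs with alpha v, beside the same shares of all genes. The alpha v chain Itgav itself read 12.08, 12.30, 12.36 and 11.86, so the large differences of Itgb3 had no counterpart in its partner chain. In WT with IL-4, 1 of the 16 was higher, the ubiquitin ligase Cblb (1.25), and 1 lower, the kinase Ptk2b (−1.13). Of all genes 1.21% were higher and 1.25% lower there.

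The resorption machinery had 2 of 18 genes lower and 0 higher in untreated Dap12-KO, where 3.12% of all genes were higher and 3.41% lower. These were carbonic anhydrase 2 (Car2), which supplies protons for acid secretion, and Syt7, a calcium sensor of lysosome exocytosis. Car2 read 11.54, 12.43, 8.67 and 9.90, with IL-4 differences of 0.89 and 1.22 (1.85 after cyclic loess) and genotype differences of −2.87 and −2.53 (−1.84 after cyclic loess). Syt7 read 7.63, 9.75, 6.26 and 7.28, with the untreated Dap12-KO value below the floor, and rose with IL-4 by 1.57 in the limma fit, the 1 call among 18. The cathepsins Ctss, Ctsl and Ctsb, relatives of Ctsk, differed by 0.13, 0.04 and 0.10 between both untreated arrays. Rab27a, a GTPase of secretory vesicles, read 8.25 in Dap12-KO with IL-4 and lay below the floor on the other 3 arrays, so it passed the floor through that array alone and no fold is given.

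The other 15 vacuolar ATPase subunits had 0 members at 2-fold in any of the 4 comparisons as deposited. Of all genes, 1.21% (IL-4 in WT) to 10.9% (genotype with IL-4) were higher in these comparisons. The lower ones were 1.25% (IL-4 in WT) to 17.6% (IL-4 in Dap12-KO and genotype with IL-4). After cyclic loess 1 subunit was higher with IL-4 in Dap12-KO, where 9.79% of all genes were. Atp6v0d1, the widely expressed counterpart of Atp6v0d2, read 12.48, 12.24, 12.90 and 12.15. Among relatives of Calcr, 3 of 4 were above the floor. Calcrl, the receptor for adrenomedullin and CGRP, read 12.24, 11.43, 10.66 and 9.14, lower in Dap12-KO by −1.58 untreated and −2.29 with IL-4 (−1.62 after cyclic loess). Of its partner proteins, Ramp1 differed by 0.93 and −0.12 (0.49 after cyclic loess) in the same 2 comparisons, and Ramp3 lay near the floor, between 6.34 and 7.20.

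**Figure D4:**
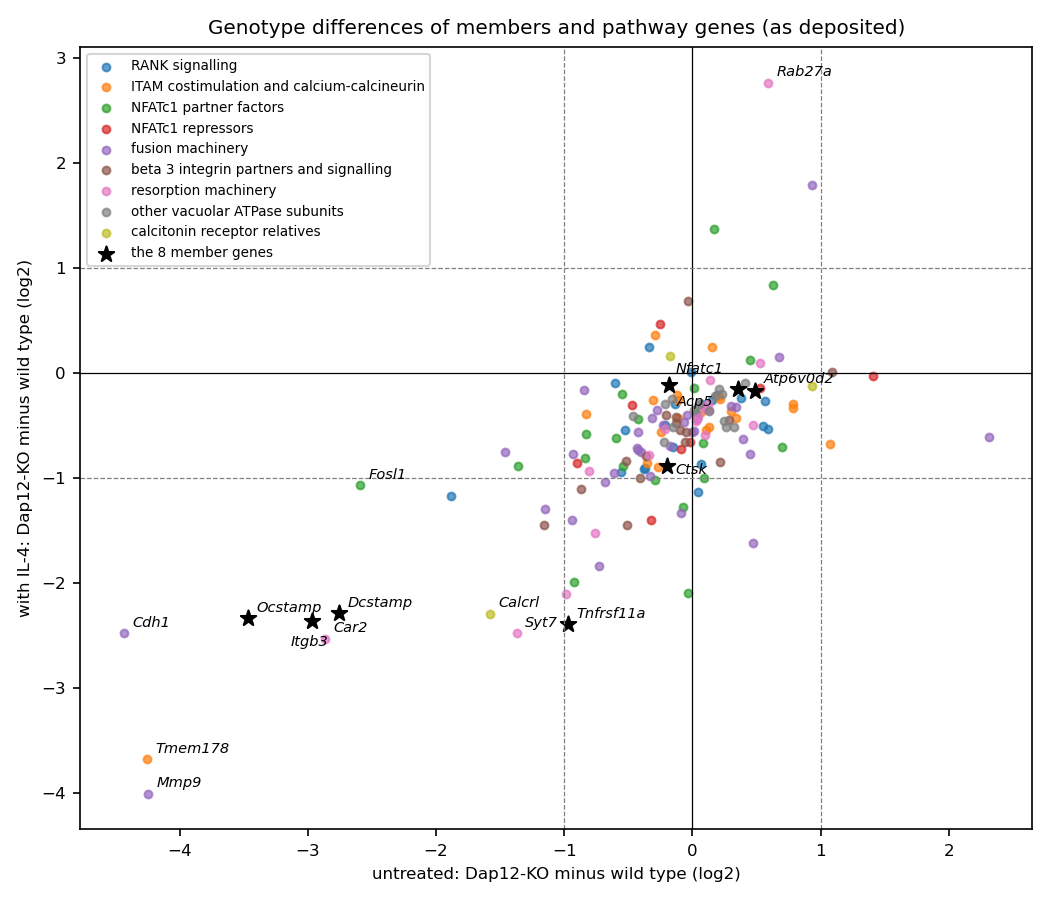
Log2 difference between Dap12-KO and WT without treatment (x axis) and with IL-4 (y axis), as deposited, for the genes of the 9 pathway lists above the floor (coloured points) and the 8 member genes (stars); dashed lines mark 2-fold. The 2 axes share no array. The y axis involves the array with the narrower spread, where the median gene stood at −0.39 and bright probe sets read lower, so the shift is not the same for all points. Ocstamp, Itgb3 and Dcstamp lie with Cdh1, Mmp9, Tmem178 and Car2 at the lower left, and Nfatc1, Acp5, Atp6v0d2 and Ctsk near the bulk of the points.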

How the data were processed

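Total RNA of 4 samples was hybridised to Affymetrix arrays after 2 cycles of amplification, per the labels' protocols. The authors deposited log2 values per probe set, and the submitters' processing notes name RMA without a version. Both amplification and RMA can change how large a difference reads, and the values carry no detection call. The number of arrays limits the precision.

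Gene symbols came from GEO's platform annotation, brought up to date by Entrez identifier with RefSeq genes (GRCm38.p6). Of 45101 probe sets, 34945 named 1 gene and 34741 of these matched, 932 named several, 9160 none and 64 were controls. Each gene was represented by its probe set of highest mean. Samples were grouped by title.

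Log2 differences were taken for 4 comparisons of 2 arrays and for the difference of both IL-4 responses. IL-4 was tested over both genotypes with limma 3.58.1 (R 4.3.3, lmFit and eBayes, Benjamini-Hochberg over all genes), checked on simulated data. No label says the samples were separate animals, so the limma p-values cover array spread that may be technical. The residual of that fit is the difference of IL-4 responses between both genotypes, which is also described as a result. In the main fit its variance was pooled fully over all genes. Alternatives were other floors, a 3-fold threshold, cyclic loess (3 iterations), quantile normalization, median centring, the median over probe sets, an intensity trend and no genotype term. Other steps used Python 3.11.15, numpy 2.4.6, pandas 2.3.3 and matplotlib 3.10.9.

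The members and the gene lists were chosen with earlier results of these data known. Genes named were all members, the 3 genes closest in pattern to each member with a 2-fold difference, paralogs, markers, and up to 2 genes of each list with the largest difference in each comparison; Genes named outside this rule (Syk, Itgav, Tnfsf11, Tnfrsf11b and limma calls within a list) were chosen after their values were seen. Listed genes without a probe set of their own were not analysed here.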

Additional observations from a re-analysis of the deposited data

Results flagged for a closer look

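In 3 members the IL-4 difference had opposite signs in the 2 genotypes, each on 1 array a group, and none of these contrasts was tested. Tnfrsf11a differed by 0.14 in WT and −1.28 in Dap12-KO, a difference of responses of −1.42. Its second probe set had the opposite signs, −0.32 and 0.34, a difference of 0.65. For Atp6v0d2 the values were 0.51 and −0.16, a difference of −0.66, and after cyclic loess both were positive. For Dcstamp they were −0.42 and 0.05, a difference of 0.47, which read 1.05 after cyclic loess. After median centring both IL-4 differences of Dcstamp were negative, at −0.40 and −0.07.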

How the results depend on the processing

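The counts of members at 2-fold were within 1.5 times of those given under every alternative for IL-4 in WT, for the members higher with IL-4 in Dap12-KO and for both genotype comparisons. Members lower with IL-4 in Dap12-KO numbered 2 as deposited, 0 at a 3-fold threshold, 0 after cyclic loess, 1 after quantile normalization (Tnfrsf11a) and 1 by the median over probe sets (Ctsk). Of 12767 genes, 2249 were lower there as deposited, 754 after cyclic loess and 1115 after quantile normalization. Members with a larger response in Dap12-KO numbered 1 as deposited, 0 at 3-fold and after median centring, and 3 after cyclic loess and after quantile normalization (Dcstamp, Ocstamp and Itgb3). Those with a smaller response numbered 1, and 0 at 3-fold, after cyclic loess and by the median over probe sets. Of all genes, 1041, 1136 and 1454 had a larger response by 2-fold as deposited, after cyclic loess and after quantile normalization. A smaller response was found for 1893, 713 and 1009 genes. The limma calls of Ocstamp and Itgb3 were 0 with no floor, after cyclic loess, after quantile normalization and with no genotype term, and 2 otherwise, with adjusted p for Itgb3 from 4.36e-06 to 0.923 over the alternatives; the cause was not tested. Of 40 single differences, 9 moved by over 1.5-fold with cyclic loess, 3 with quantile normalization, 5 by the median over probe sets and 0 with median centring, and no 2-fold difference reversed. The labels carry no replicate numbers that could pair arrays, and the limma fit of IL-4 was already paired by genotype, its block. Leaving out a replicate of the limma fit leaves 1 genotype, whose difference is given with no test.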
